A study of Sus scrofa with 35 samples.

Results

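The genes described here buffer ATP in muscle: the creatine kinases CKM, CKMT2 and CKB, the creatine synthesis enzymes GATM and GAMT, the creatine transporter SLC6A8, and the adenylate enzymes AK1 and AMPD1. Probes were taken by the gene name in the scanner files, in any case of letters. This found 41 of the 60305 probes on the array, all of them kept by the filter on dim probes: 12 for CKMT2, 11 for CKM, 8 for GATM, 5 for AMPD1, 3 for SLC6A8 and 1 each for CKB and AK1. No probe carried the name GAMT and none of another name led to it through its accession, so 7 of the 8 genes were measured and the second step of creatine synthesis was not analysed here. Membership rests on the gene name and on no measured value, and the list itself was drawn up with earlier results of these data known.

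Longissimus dorsi, a back muscle, was sampled from castrated male growing pigs of 3 genetic groups, namely Creole (a local breed of Guadeloupe), Large White and the F1 between them. Slaughter took place at thermoneutrality (TN) or after a heat stress (HS), which gave 6 arrays in each of 6 breed-by-temperature groups except F1 HS, which had 5, in all 35 arrays with 1 pig each. TN pigs are labelled 24 °C. HS pigs are labelled 30 °C, although the protocol text describes 5 days at 32 °C, and the methods of the study the same or a day less. Per the study methods each breed came from a few groups of littermates, and HS pigs were slaughtered later and housed in other pens than TN pigs. Age, day and pen therefore cannot be told apart from temperature. The study also reports that the challenged pigs ate less in the heat, and feed intake cannot be told apart from temperature here either. The p-values below measure the spread between these pigs, taken as independent.

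Creatine kinases move a phosphate group between ATP and creatine, and phosphocreatine is the short-term energy store of a contracting fibre. Creatine is made by GATM and then GAMT, largely outside muscle, and enters the fibre through SLC6A8. CKM sits in the cytosol beside the myofibrils, CKMT2 is the sarcomeric mitochondrial form that charges creatine where ATP is made, and CKB is the brain-type cytosolic form, found also in immature muscle and in many non-muscle cells. AK1 turns ADP back into ATP and AMP, and AMPD1 deaminates AMP to IMP in the purine nucleotide cycle of fast fibres.

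Levels are log2 of the quantile-normalised spot intensity, a relative unit per probe, so they were compared between groups for 1 probe and not between genes. Each gene is described by its probe with the highest mean, called here the brightest probe, and by the range over its other probes. No spot was saturated. The share of spots well above background ran from 58.4% to 75.9% per array. The log2 of the 75th percentile of raw intensity, an array's brightness, was 9.05 ± 0.17 (SD, n = 18) on TN and 9.24 ± 0.24 (SD, n = 17) on HS arrays. Markers of the labelled tissue were clear: all 5 measured muscle fibre markers, all 12 fast and all 8 slow fibre markers were well above background on every array. The mean log2 level over 16 measured leukocyte markers was 9.0 ± 0.68 (SD, range 7.64 to 10.12) on TN and 9.65 ± 0.46 (SD, range 8.91 to 10.50) on HS arrays, with 13 of the 16 well above background on every array and 6 of the 16 called higher under HS. The mean over 16 connective tissue markers was 11.96 ± 0.33 (SD) on TN and 12.30 ± 0.24 (SD) on HS arrays, with 15 of 16 well above background on every array and 7 of 16 called higher. Of the 12 fast fibre markers 4 were called lower. Over all genes, by the brightest probe, 8.45% were called higher and 9.81% lower. In the other lists 1 of 5 muscle fibre, 1 of 8 slow fibre and 2 of 8 nerve markers were called higher. Called lower were 1 of 5 muscle fibre, 1 of 8 endothelial and 2 of 4 red blood cell markers. No adipocyte or smooth muscle marker was called. In whole muscle, fewer cells of a type and less RNA per cell cannot be told apart.

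Of the 60-base member probes 14 are printed below, 5′ to 3′ as the scanner files give them. The brightest probes of GATM and CKM and the only CKB probe are not among them. A_72_P613851 has a stop codon in each forward frame, and every other probe printed has at least 1 frame without one. They show which stretch of a transcript a value reports and where probes are not independent of each other. For GATM, A_72_P560189, at base 969 of its accession, was the farthest from the 3′ end of those with a position. It was also the dimmest and gave the smallest difference of the 8.
A_72_P560189: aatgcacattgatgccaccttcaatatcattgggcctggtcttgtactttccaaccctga

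For CKMT2, A_72_P294310 started at base 21 of its accession and the other 4 probes shown started between bases 1141 and 1175 and overlapped. Capitals mark the longest runs shared by all 4, which were 2 of 11 bases each.
A_72_P294310: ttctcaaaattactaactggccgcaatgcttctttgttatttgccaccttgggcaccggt
A_72_P613851: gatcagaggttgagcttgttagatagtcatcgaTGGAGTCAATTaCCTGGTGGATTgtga
A_72_P571084: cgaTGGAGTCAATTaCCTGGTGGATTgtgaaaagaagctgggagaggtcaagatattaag
A_72_P578693: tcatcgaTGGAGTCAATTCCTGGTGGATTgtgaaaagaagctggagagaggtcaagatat
A_72_P567519: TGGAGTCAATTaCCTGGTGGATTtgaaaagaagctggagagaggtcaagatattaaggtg

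The SLC6A8 probes O9451 and A_72_P338743 shared the 52 bases in capitals, and the AMPD1 probes A_72_P208487 and A_72_P649894 the 35 bases in capitals.
O9451: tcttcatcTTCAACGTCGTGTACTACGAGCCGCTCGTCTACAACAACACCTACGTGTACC
A_72_P338743: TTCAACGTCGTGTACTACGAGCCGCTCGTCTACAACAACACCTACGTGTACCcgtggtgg
A_72_P208487: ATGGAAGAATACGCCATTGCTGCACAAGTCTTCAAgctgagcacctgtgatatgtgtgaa
A_72_P649894: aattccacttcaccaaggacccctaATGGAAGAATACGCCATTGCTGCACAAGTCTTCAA
AK1 had the single probe O14577, and O14842 was the brightest AMPD1 probe.
O14577: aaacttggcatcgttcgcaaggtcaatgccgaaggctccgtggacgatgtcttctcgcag
O14842: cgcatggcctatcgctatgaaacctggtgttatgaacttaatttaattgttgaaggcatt
For CKM, A_72_P603616 was the dimmest probe and A_72_P650270 the only one called in a comparison.
A_72_P603616: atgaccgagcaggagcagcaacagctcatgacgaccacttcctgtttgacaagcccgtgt
A_72_P650270: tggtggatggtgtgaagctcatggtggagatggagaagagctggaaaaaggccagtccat

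Of the 41 member probes, 33 carried a RefSeq transcript accession, and 31 of these accessions were in the pig RefSeq table. The 2 that were not belonged to O14842 of AMPD1 and to O10122, the only CKB probe. The gene names of these 2 rest on the array design alone. Member probes without a RefSeq transcript accession were not checked in this way.

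Over all breeds, the heat challenge was accompanied by higher GATM and by lower CKMT2 and AK1, while CKM, CKB and SLC6A8 did not pass the test. In the additive model of breed and temperature, 22 of the 41 member probes were called at an adjusted p below 0.05 (limma, Benjamini-Hochberg over 41517 probes), 8 higher and 14 lower under HS. The called share over all kept probes was 16.0%, with 7.73% called higher and 8.3% lower. The 8 higher were the 8 GATM probes, and the 14 lower were the 12 CKMT2 probes, the AK1 probe and 1 of 5 AMPD1 probes. Probes of 1 gene read the same transcript and count as 1 gene, so the called genes were 4 of 7, of which 1 was higher and 3 lower. Over all genes, by the brightest probe, 8.45% were called higher and 9.81% lower. The AMPD1 call, by 1 of 5 probes, was not stable, as given below. Of the calls over all probes 48.2% were higher, against 37.5% with 75th percentile scaling, 63.6% with array brightness as a covariate and 86.5% with scaling to spike-in controls. The median difference over all 9546 genes, each by its brightest probe, was -0.02.

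**Figure D1:**
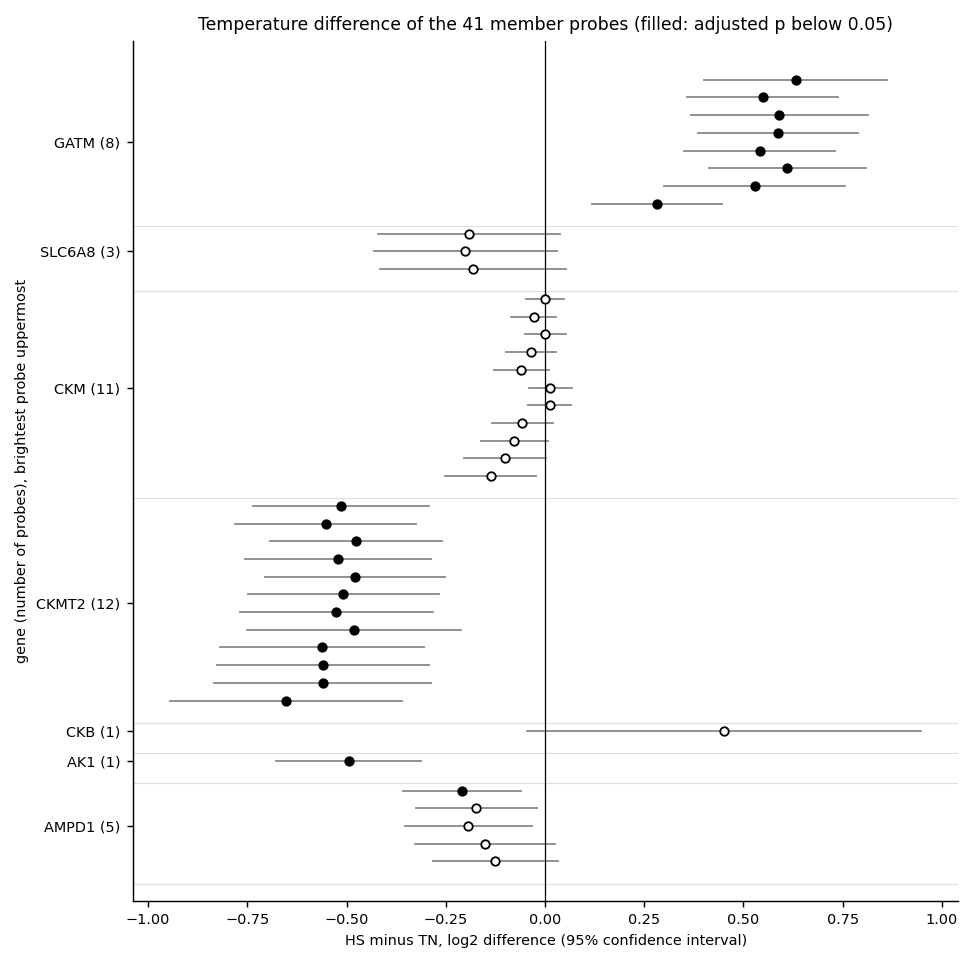
HS minus TN difference on the log2 scale (x axis) with its 95% confidence interval for each of the 41 member probes, grouped by gene with the brightest probe uppermost. Filled points have an adjusted p below 0.05. The 8 GATM points lie between 0.28 and 0.63, the 12 CKMT2 points between -0.65 and -0.48, and the 11 CKM points between -0.14 and 0.01.

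Creatine synthesis was represented by GATM, the amidinotransferase that makes guanidinoacetate from arginine and glycine. In Creole pigs the brightest probe, O9294, read 6.85, 7.31 and 7.89 (lowest, median and highest of 6 arrays) at TN and 7.72, 8.26 and 8.59 under HS. In Large White pigs it read 6.70, 7.16 and 7.87 at TN and 7.63, 7.87 and 8.45 under HS. In F1 pigs it read 6.89, 7.34 and 7.66 at TN, and the 5 HS arrays read 7.38, 7.39, 7.42, 7.81 and 8.16. HS and TN arrays overlapped in each breed, yet all 17 HS arrays lay above the TN mean of their breed, and 7 of 17 lay above every TN array. Here and for the genes below, such counts come from the same arrays as the test and are no separate support. The share of all genes that reach them was not computed. The fitted difference was 0.63 (SE 0.11, adjusted p = 0.000434, limma), a 1.55-fold higher level. The other 7 probes gave 0.28 to 0.61, all called. Ordered by mean, the groups ran Creole HS, Large White HS, F1 HS, Creole TN, F1 TN and Large White TN, the 3 HS groups first. No neighbours in that order were further apart than the larger of their SDs.

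GATM spots were dim. The median raw intensity of its probes was 69 to 187.5 units, which was 1.76 to 4.58 times the local background. On TN arrays A_72_P585161 passed the background test on 16 of 18 and A_72_P560189 on 17 of 18, and both passed on all 17 HS arrays. Without these 2, as in the set of probes well above background on all arrays, the 6 remaining probes gave 0.54 to 0.63 and all stayed called. Values were not background-subtracted, which can understate the change of a dim probe, as can an offset added to it. With normexp background correction and its offset of 50 the 8 probes gave 0.19 to 0.54, all called. With 75th percentile scaling of the processed signal they gave 0.48 to 0.85, all called. Within the 4 slides that held both temperatures in enough arrays, the O9294 difference was 0.25 to 0.99. Adding the mean of the leukocyte markers to the fit gave O9294 a difference of 0.32 (adjusted p = 0.0165) and called 6 of 8 probes, and adding array brightness gave 0.46 (adjusted p = 0.00861) and called 7 of 8. The part that leukocyte RNA takes in the GATM difference was not tested beyond these fits.

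SLC6A8, the creatine transporter of the plasma membrane, did not pass the test. Its brightest probe, O9451, was 10.37 ± 0.32 (SD, n = 18) at TN and 10.18 ± 0.36 (SD, n = 17) under HS, a difference of -0.19 (SE 0.11, adjusted p = 0.255, limma, 95% confidence interval -0.42 to 0.04). The 3 probes gave -0.20 to -0.18, and 2 of them share most of their bases. In Creole and Large White pigs the difference was -0.39 and -0.35, in F1 pigs 0.20. The interaction of breed and temperature for A_72_P080761, the probe not printed above, had the smallest unadjusted p of any member probe, 0.027, with an adjusted p of 0.963. A difference between breeds in the response of SLC6A8 was therefore not shown.

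CKMT2, the mitochondrial creatine kinase of striated muscle, fell under HS with all 12 probes. At TN the brightest probe, A_72_P613851, read 16.35, 16.52 and 16.80 (lowest, median and highest of 6) in Creole, 15.66, 16.52 and 16.69 in F1, and 15.77, 16.52 and 16.90 in Large White pigs. Under HS it read 15.33, 16.08 and 16.30 in Creole and 15.30, 15.98 and 16.40 in Large White pigs, and 15.85, 15.86, 15.87, 16.03 and 16.22 on the 5 F1 arrays. The HS and TN arrays of Creole pigs did not overlap, which held for 1.04% of all genes in the same direction. In F1 and Large White pigs they overlapped, mainly through 1 low TN array in each, at 15.66 and 15.77. All 17 HS arrays lay below the TN mean of their breed.

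The CKMT2 difference was -0.51 (SE 0.11, adjusted p = 0.00199, limma), a 1.43-fold lower level, and the 12 probes gave -0.65 to -0.48. The largest belonged to A_72_P294310 at the start of the transcript (-0.65, adjusted p = 0.00276), and the 4 overlapping probes printed above gave -0.53 to -0.48. Ordered by mean, the 3 TN groups came first (Creole, Large White, F1), then F1, Large White and Creole under HS. The step from F1 TN to F1 HS, 0.41, was the only one between neighbours larger than both SDs. All 12 probes stayed called without any 1 of the 35 arrays. Within slides the difference was negative in 4 of 4, from -0.90 to -0.10. With array brightness as a covariate 2 of 12 probes were called (brightest probe -0.34, adjusted p = 0.0401), and with the mean of the leukocyte markers none was (-0.27, adjusted p = 0.0937). The called share over all probes fell too, from 16.0% to 5.04% with brightness and 5.71% with the leukocyte markers.

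**Figure D2:**
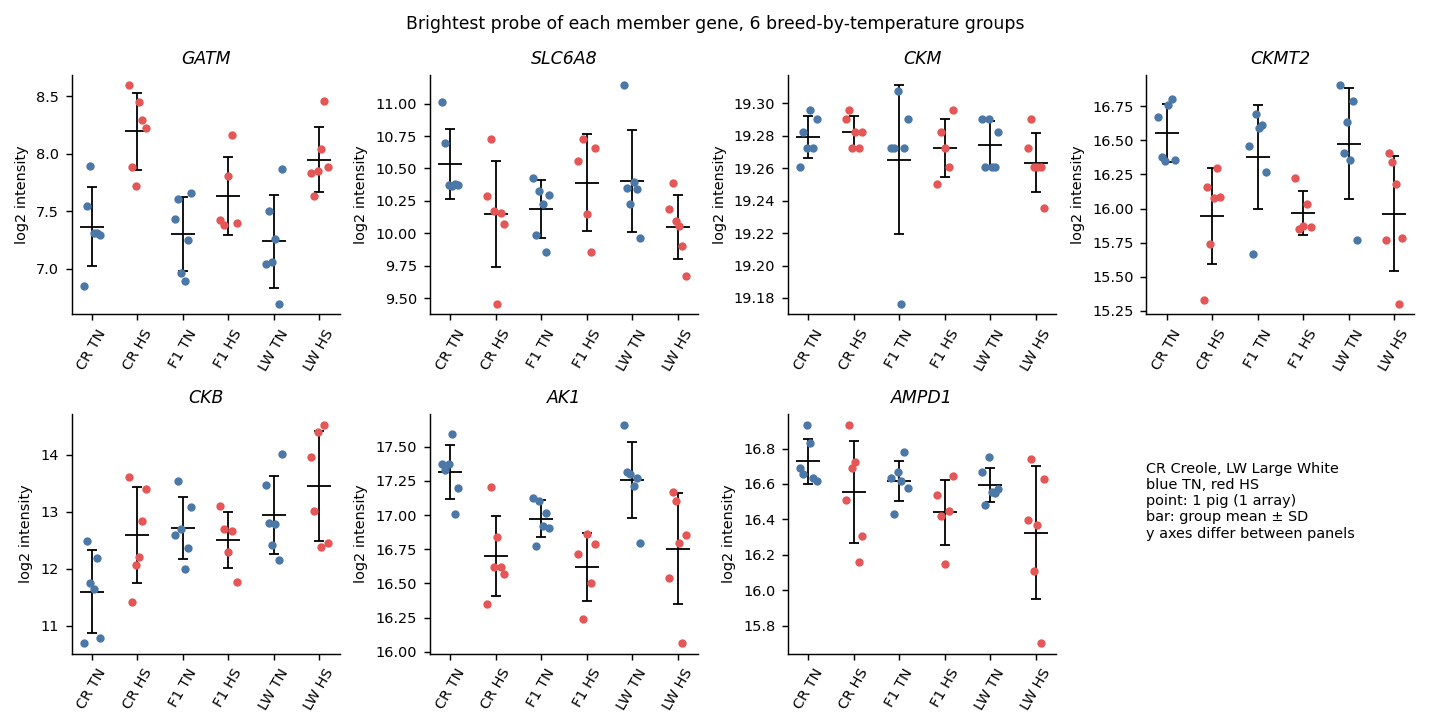
Log2 intensity of the brightest probe of each measured gene (y axis, its own scale in each panel) for every pig in the 6 breed-by-temperature groups (x axis). Points are arrays, and the bar and whiskers are the group mean ± SD. All 17 HS arrays of GATM lie above, and all of CKMT2 and AK1 below, the TN mean of their breed, while the CKM panel spans only 19.18 to 19.31. GATM, CKMT2 and AK1 were called on these same arrays.

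CKM, the cytosolic muscle creatine kinase, gave no called difference with temperature in any of its 11 probes. Its brightest probe, A_72_P597713, was 19.27 ± 0.03 (SD, n = 18, range 19.18 to 19.31) at TN and 19.27 ± 0.02 (SD, n = 17, range 19.24 to 19.30) under HS. The difference was -0.0003 (SE 0.02, adjusted p = 0.995, 95% confidence interval -0.05 to 0.05). HS arrays lay on both sides of the TN mean of their breed, 8 above and 9 below. The 6 group means differed by at most 0.02, and no neighbours in their order were further apart than the larger SD.

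The CKM spots lay near the top of the scale. Their raw intensity was between 24.9% and 85.5% of the scanner's saturation value, and A_72_P597713 ranked between 3 and 17 among the 60306 spots of an array. Quantile normalisation gives the brightest ranks of every array the same values, so a probe at the top can move little on this scale. The SD within groups was 0.02 for A_72_P597713 and 0.16 for A_72_P603616, the dimmest of the 11. The temperature difference was -0.14 for the dimmest (A_72_P603616, adjusted p = 0.0887) and -0.0003 for the brightest. The 4 probes nearest the 3′ end (A_72_P597713, A_72_P581502, A_72_P227527 and A_72_P176246) held the 4 values closest to 0, and spot intensity and position in the transcript were not separated. The 95% confidence interval of A_72_P603616, not adjusted for the number of probes, was -0.25 to -0.02.

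How CKM was scaled set its call. With each array scaled to its 75th percentile of processed signal, the 11 probes gave -0.33 to -0.17 and 8 were called lower. Over all kept probes the median was then -0.06 and 17.5% were called in either direction, with 37.5% of those calls higher. With median scaling the 11 probes gave -0.26 to -0.12 and 4 were called lower. Of all probes 16.0% were then called in either direction, with 56.7% of those calls higher. With scaling to the synthetic spike-in RNAs the 11 probes gave -0.19 to -0.05 and none was called, beside 11.2% of all probes. The 75th percentile of raw intensity was higher on HS arrays, as given above, and that of the processed signal was not compared between temperatures. The call of CKM thus depended on the scaling.

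**Figure D3:**
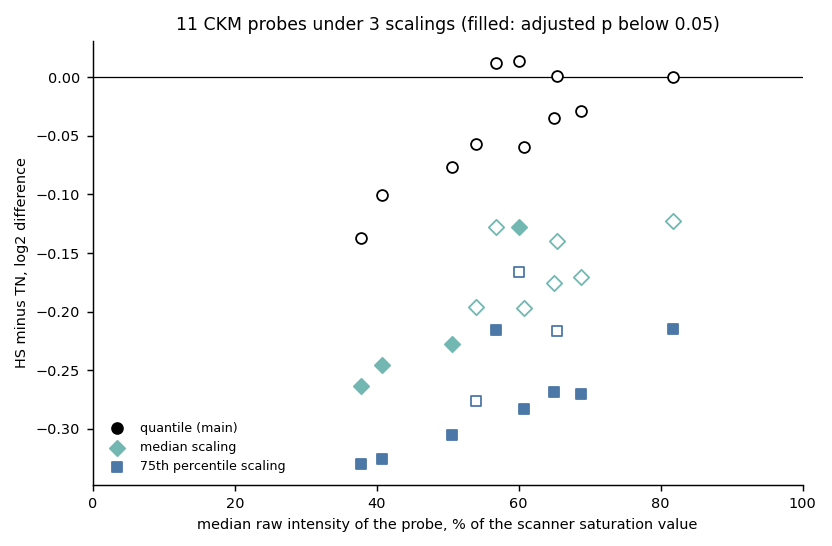
HS minus TN log2 difference (y axis) of the 11 CKM probes against their median raw intensity as a percentage of the scanner saturation value (x axis), under quantile normalisation, median scaling and 75th percentile scaling. Filled points have an adjusted p below 0.05. Quantile-normalised values lie between -0.14 and 0.01 and 75th percentile values between -0.33 and -0.17.

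CKB varied most between pigs of the measured members, with an SD within groups of 0.73. At TN its only probe, O10122, read 10.70, 11.70 and 12.50 (lowest, median and highest of 6) in Creole, 11.999, 12.65 and 13.53 in F1, and 12.15, 12.80 and 14.02 in Large White pigs. Under HS it read 11.41, 12.53 and 13.60 in Creole and 12.39, 13.48 and 14.53 in Large White pigs, and 11.77, 12.29, 12.66, 12.69 and 13.09 in F1 pigs. HS and TN arrays overlapped in each breed. The temperature difference was 0.45 (SE 0.24, adjusted p = 0.208, 95% confidence interval -0.04 to 0.95), with 10 of 17 HS arrays above the TN mean of their breed. With the leukocyte markers in the fit it was -0.19 (adjusted p = 0.582). Ordered by mean, both Large White groups came first and Creole TN last, and only F1 HS and Creole TN, the last neighbours, were further apart (0.91) than the larger SD.

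AK1, the cytosolic adenylate kinase of muscle, fell under HS. At TN its probe read 17.01, 17.35 and 17.60 (lowest, median and highest of 6) in Creole, 16.77, 16.97 and 17.13 in F1, and 16.79, 17.29 and 17.66 in Large White pigs. Under HS it read 16.35, 16.62 and 17.21 in Creole, 16.24, 16.50, 16.71, 16.79 and 16.86 in F1, and 16.07, 16.83 and 17.17 in Large White pigs. The groups overlapped in each breed, all 17 HS arrays lay below the TN mean of their breed, and 9 of 17 lay below every TN array. The difference was -0.50 (SE 0.09, adjusted p = 0.000479, limma), a 1.41-fold lower level. It stayed called without any 1 array (-0.52 to -0.45), with array brightness as a covariate (-0.31, adjusted p = 0.0054) and with the mean of the leukocyte markers (-0.36, adjusted p = 0.0206). Within slides it was negative in 4 of 4, from -0.91 to -0.14. The 3 TN groups had the 3 highest means, and of neighbours only Large White TN and F1 TN were further apart (0.29) than the larger SD.

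AMPD1, the muscle AMP deaminase, gave a smaller and less stable difference. O14842 was 16.65 ± 0.12 (SD, n = 18, range 16.43 to 16.94) at TN and 16.44 ± 0.30 (SD, n = 17, range 15.70 to 16.93) under HS, so HS arrays were the more scattered. Of the 17 HS arrays 13 lay below the TN mean of their breed. The difference was -0.21 (SE 0.07, adjusted p = 0.0475, limma). The other 4 probes gave -0.19 to -0.13 and were not called, with adjusted p from 0.0893 to 0.279, and the mean of all 5 gave -0.17 (adjusted p = 0.116). The call of O14842 was lost in 23 of the 35 fits that left out 1 array and under 6 of 13 other settings.

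**Figure D4:**
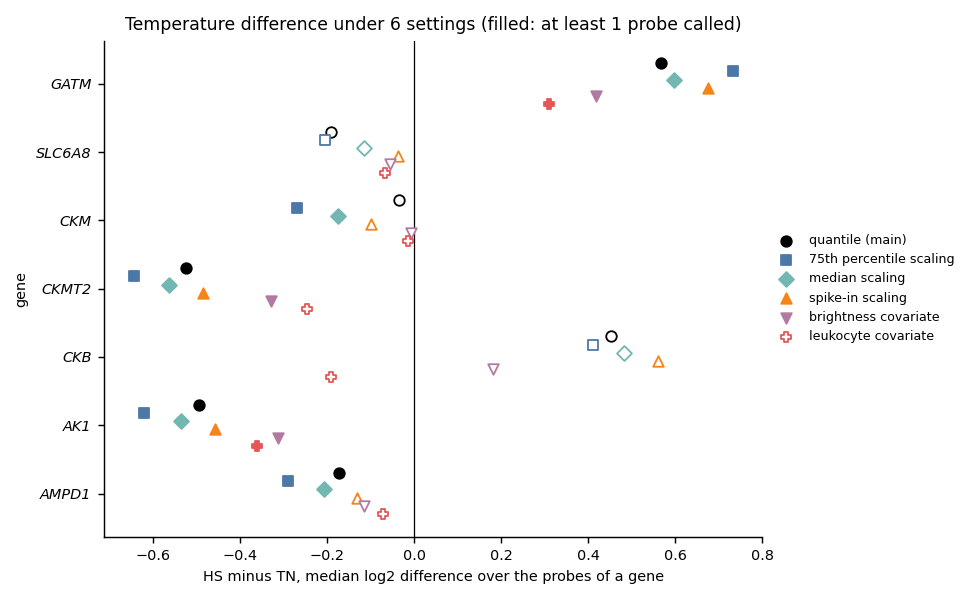
Median HS minus TN log2 difference over the probes of each gene (x axis) under quantile normalisation, 3 other scalings and 2 covariates. Filled symbols have at least 1 probe called. GATM stays above 0 and CKMT2 and AK1 below 0 in all 6, CKM is called only with 75th percentile and median scaling, and CKB changes sign with the leukocyte covariate.

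Other genes of the pathway were read by their brightest probe, beside 8.45% of all genes called higher and 9.81% called lower. Of 6 transporters and channels that pass adenine nucleotides across the mitochondrial membranes, 5 were measured and 3 were called lower: SLC25A4, the ADP/ATP carrier of muscle (-0.51, SE 0.08, adjusted p = 0.000166), and the outer membrane channels VDAC1 (-0.19, SE 0.05, adjusted p = 0.00983) and VDAC2 (-0.18, SE 0.05, adjusted p = 0.0115). The median of the 5 was -0.18. Of 20 genes of the purine nucleotide cycle and salvage, 15 were measured, 3 called higher and 2 lower, with a median of 0.12. ADSSL1, the muscle adenylosuccinate synthase that follows AMPD1 in the cycle, was lower (-0.52, SE 0.12, adjusted p = 0.00396), as was the GMP reductase gene GMPR (-0.37, SE 0.09, adjusted p = 0.00761). Higher were AMPD2 (0.58, SE 0.14, adjusted p = 0.0061), the deaminase isoform of many tissues, the ecto-nucleotidase gene NT5E (0.53, SE 0.15, adjusted p = 0.0127) and GMPR2 (0.26, SE 0.07, adjusted p = 0.00973).

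Of 18 listed adenylate, nucleoside diphosphate and ubiquitous mitochondrial creatine kinase symbols, 9 were measured, no creatine kinase among them, and none was called, with a median of 0.08 and 8 of 9 positive. Of 6 measured subunits of the AMP-activated protein kinase, the sensor of AMP, the regulatory subunit PRKAG1 was called lower (-0.12, SE 0.04, adjusted p = 0.0310). Of 8 measured genes that supply arginine and methyl groups for creatine, MAT2B, the regulatory subunit of methionine adenosyltransferase, was called higher (0.28, SE 0.09, adjusted p = 0.0223), and the median of the 8 was 0.01.

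Within single breeds the tests had less to work with. Within Creole pigs 7 of the 41 member probes were called, beside 1.91% of all probes: 6 of 8 GATM probes (brightest probe 0.83, SE 0.19, adjusted p = 0.0299) and AK1 (-0.61, SE 0.15, adjusted p = 0.0369). CKMT2 was -0.61 there (SE 0.19, adjusted p = 0.0766). Within F1 pigs no member probe was called, beside 0.00482% of all probes, and the brightest probes of GATM, CKMT2 and AK1 gave 0.33, -0.41 and -0.35. Within Large White pigs no member probe was called either, beside the same 0.00482%, with 0.71, -0.51 and -0.51. Each of these 3 genes had the same sign in the 3 breeds, as did AMPD1 (-0.17 in Creole, -0.18 in F1 and -0.27 in Large White pigs). All were called in the fit over these same arrays, so the shared sign is no separate support. The count within Creole was 0 to 4 without Creole TN replicate 1, 5 or 6 or Creole HS replicate 1, 5 or 6, and 11 to 14 without Creole TN replicate 3, Creole HS replicate 2, F1 TN replicate 2, Large White HS replicate 5 or Large White TN replicate 6. That within Large White was 19 without Large White TN replicate 6.

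No member probe was called for an interaction of breed and temperature (limma, moderated F-test, 0 of 41, beside 0% of all probes). Before adjustment 1 of 41 had a p below 0.05, and 1593 of 41517 over all probes. The breeds were not shown to differ in the response of these genes.

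Between the parent breeds, CKB was the only member with a called difference. It rests on 1 probe, O10122, whose gene name comes from the array design alone. Over both temperatures its mean was 12.09 in Creole (SD 0.91, n = 12), 12.62 in F1 (SD 0.51, n = 11) and 13.20 in Large White pigs (SD 0.84, n = 12). Creole arrays ran from 10.70 to 13.60 and Large White arrays from 12.15 to 14.53, and 10 of 12 Creole arrays lay below the Large White mean. Creole minus Large White was -1.11 (SE 0.29, adjusted p = 0.0259, limma), a 2.15-fold lower level in Creole, and it was 1 of 41 member probes called beside 3.64% of all probes. F1 pigs lay between the parents, -0.56 against Large White (SE 0.30, adjusted p = 0.531) and 0.55 against Creole (SE 0.30, adjusted p = 0.645), and -0.01 from the parental midpoint (SE 0.26, 95% confidence interval -0.54 to 0.53).

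The CKB breed difference was negative within each of 4 slides, from -1.84 to -0.70. Its adjusted p rose above 0.05 without Creole TN replicate 1 (-0.997, adjusted p = 0.0534), Creole TN replicate 6 (-1.01, adjusted p = 0.0522), Large White HS replicate 3 (-1.02, adjusted p = 0.0523) or Large White TN replicate 6 (-1.01, adjusted p = 0.0509), and with TN arrays alone (-1.35, adjusted p = 0.0901). In the same comparison 4 of 16 connective tissue, 3 of 8 endothelial and 1 of 16 leukocyte markers were called lower in Creole, and none higher. Over all genes 2.21% were called lower and 1.49% higher. The mean over the connective tissue markers was 12.02 in Creole and 12.30 in Large White pigs, and that over the leukocyte markers 9.18 and 9.38. With the leukocyte markers in the fit CKB gave -0.91 (adjusted p = 0.00388, limma), beside 5.13% of all probes called in that fit. The part of connective tissue in the CKB difference was not tested.

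The other members gave no called difference between the parent breeds. AMPD1 was higher in Creole by 0.18 to 0.29 over its 5 probes, with adjusted p from 0.125 to 0.317, and 10 of 12 Creole arrays lay above the Large White mean for O14842. GATM gave 0.19 (SE 0.14), SLC6A8 0.11 (SE 0.14), CKMT2 0.03 (SE 0.13), CKM 0.01 (SE 0.03) and AK1 0.0005 (SE 0.11) by their brightest probes. Of the genes of the purine nucleotide cycle and salvage, ADSL, the lyase of the cycle, was called lower in Creole (-0.51, SE 0.13, adjusted p = 0.0156), the 1 call among 15 measured, beside 2.21% of all genes called lower and 1.49% called higher.

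For the F1 cross, no member probe was called against Large White, beside 0.525% of all probes (218 called), or against Creole, beside 0.477% (198 called). Against the parental midpoint 1 of 41 was called, beside 0.246% of all probes: A_72_P650270 of CKM, lower by -0.16 (SE 0.04, adjusted p = 0.0459, limma). The 10 other CKM probes gave -0.15 to -0.0007 and were not called. The call was lost under 6 of 12 other settings and in 31 of the 35 fits that left out 1 array, and the CKM scale is compressed as described above. Both parental contrasts share the F1 arrays, and that with the midpoint shares all 35.

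Among pigs of 1 group, with the group means removed, some members varied together. Over 21 pairs of genes and 35 arrays, 8 pairs had an adjusted p below 0.05 (Pearson r, permutation within groups, two-sided, Benjamini-Hochberg over the 21 pairs). How many other gene pairs the same test would call was not computed, so the count is not shown to be particular to these members. The closest pair was CKMT2 with AK1 (r = 0.68, permutation p = 7e-05, adjusted 0.00147, Spearman rho = 0.55, permutation p = 0.00202, adjusted 0.0232). GATM ran against CKMT2 (r = -0.59, permutation p = 0.00044, adjusted 0.00462, rho = -0.49, permutation p = 0.00519) and with CKB (r = 0.55, permutation p = 0.00126, adjusted 0.00882, rho = 0.52, permutation p = 0.00221). With the slide also removed these were 0.79, -0.60 and 0.64, and without the 2 arrays farthest from the median of the first gene 0.63, -0.48 and 0.48, all still below 0.05 after adjustment.

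The other 5 pairs were no longer called without the 2 arrays farthest from the median of the first gene, which differ between first genes, although r kept its sign, and with the slide removed all 5 stayed called. GATM with SLC6A8 went from r = -0.52 to -0.47 (adjusted permutation p = 0.0195 to 0.062), GATM with AK1 from -0.43 to -0.38 (0.0416 to 0.139), AK1 with AMPD1 from 0.55 to 0.40 (0.0302 to 0.189), CKB with AMPD1 from -0.53 to -0.38 (0.0275 to 0.189) and CKB with AK1 from -0.47 to -0.29 (0.0416 to 0.290). GATM with AMPD1 went the other way, from -0.36 (adjusted p = 0.0742) to -0.48 (adjusted permutation p = 0.0393). CKM was within 0.19 of 0 with every other member. This rests on its brightest probe, which can move little after quantile normalisation, as described above. Its dimmer probes were not used. All pairs share the array, its brightness and the normalisation.

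**Figure D5:**
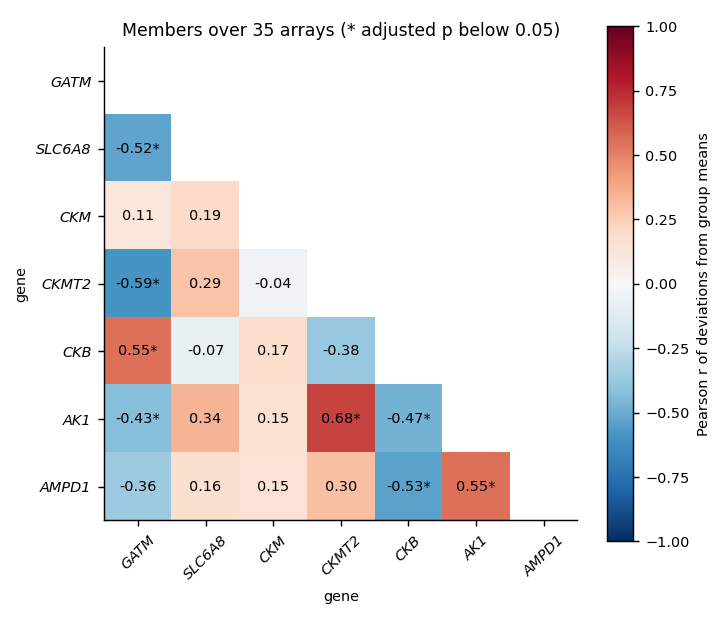
Pearson r between the brightest probes of the 7 measured genes over 35 arrays, after removal of the 6 group means (colour and number), with an asterisk where the adjusted permutation p is below 0.05. CKMT2 and AK1 vary together (0.68), GATM varies with CKB (0.55) and against CKMT2 (-0.59), and CKM shows no value outside -0.04 to 0.19. The CKM probe used can move little after quantile normalisation.

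The genes with the pattern most like each member over the 35 arrays, by Pearson r and as a description, differed between members. For CKMT2 they were GOT1, the cytosolic aspartate aminotransferase (r = 0.92, and 0.88 with group means removed), NDUFS3 of complex I (0.90 and 0.87) and UQCRB of complex III (0.89 and 0.83). For AK1 they were the glycolytic genes PGAM2 (0.93 and 0.88) and ALDOA (0.90 and 0.84) and the muscle glycogen phosphorylase gene PYGM (0.92 and 0.88). For GATM they were the kinase gene LRRK2 (0.90 and 0.84), the lysosomal thioesterase gene PPT1 (0.88 and 0.83) and PLP2 (0.88 and 0.79). For CKB they were the lysyl oxidase family gene LOXL2 (0.80 and 0.72) and the lymphocyte genes NKG7 (0.80 and 0.76) and CD3D (0.80 and 0.67).

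For AMPD1 the closest genes were ITM2A (0.76 and 0.74), MYO18B (0.74 and 0.66) and BTBD1 (0.74 and 0.72), and for SLC6A8 the importin gene KPNA4 (0.74 and 0.77), OCIAD1 (0.74 and 0.66) and the kinase gene RPS6KA3 (0.74 and 0.73). CKM had no close match by its brightest probe, which can move little after quantile normalisation. The nearest were the fast myosin light chain gene MYLPF (0.55 and 0.51), FOPNL (0.54 and 0.48) and KLHDC9 (0.52 and 0.56).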

How the data were processed

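RNA of 35 muscle samples was labelled with Cy3 and hybridised to single-colour Agilent porcine arrays by the authors, who read the spots with Agilent Feature Extraction (version 10.10.1.1, per the submitters' processing notes). In the deposited scanner files each spot has a linear intensity, a local background and quality flags. The deposited value table has log2 values of 40649 probes after the authors' quantile normalisation and filter on expressed probes. It was used as an alternative only, and each of its columns matched its own array (lowest Pearson r 0.99998). The study methods annotate probes on Sscrofa11.1; no genome was used here and no coordinates are printed.

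Median pixel intensity of non-control spots was quantile-normalised across arrays and log2 taken. The 105 outlier-flagged spots were dropped and repeat spots of a probe averaged. A probe stayed in when 75% or more of the arrays in any 1 group had it well above background (41517 of 60305). Tests across all kept probes used lmFit and eBayes of limma 3.58.1 in R 4.3.3, with Benjamini-Hochberg adjustment at 0.05: breed plus temperature for main comparisons, and 1 mean per group for temperature within breed and the interaction. Pen, day and parents, random terms in the study methods, were left out because the labels lack them. All arrays entered each fit. The number of arrays limits the precision.

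Correlations used 100000 shuffles within groups. The 35 arrays lay on 5 slides, each scanned on its own. Slide was used as a block, and slide 5 held only 3 arrays (2 Large White TN, 1 Creole HS) and gives no within-slide value. The gene list, pathway lists and markers were chosen with earlier results of these data known. Named are all members by their brightest probe, at most 6 called genes per list and comparison, and the 3 genes most like each member; single member probes printed or singled out beyond these were chosen after their values were seen. Gene symbols come from the files and, where an accession matched, the pig RefSeq table of Sscrofa11.1. Fits were run on simulated arrays with independent probes and no shared array effects, which does not give their error rate in these data. The alternatives were other scalings, background correction, filters, array weights, slide, covariates, the breed term, TN arrays alone and leaving out each array. One result of the pathway lists is not reported here.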

Additional observations from a re-analysis of the deposited data

Results flagged for a closer look

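Single arrays were compared with the rest of their group for 42 combinations of gene and group, of which 2 held an array far from the others, where chance gives about 2.1 at 1 in 20. For CKM, F1 TN replicate 4 was the lowest of its group at 19.18, beside 19.27 for the next, a gap of 0.732 of the group's range. For SLC6A8, Large White TN replicate 1 was the highest of its group at 11.14, beside 10.39 for the next, a gap of 0.636 of the range.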

How the results depend on the processing

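For HS minus TN, GATM (0.32 to 0.76) and AK1 (-0.62 to -0.31) kept their direction and their call by the brightest probe under the 13 other settings and without any 1 array. The 22 member probes called became 21 to 24 without any 1 array, and 7 to 32 under the 12 other settings: 32 with 75th percentile scaling (8 higher, 24 lower), 10 with array brightness and 7 with leukocyte markers as a covariate. The share of all probes called was 16.0% in the main setting and 17.5%, 5.04% and 5.71% in these 3. Over all probes 48.2% of calls were higher in the main setting, 37.5% with 75th percentile scaling and 86.5% with spike-in scaling. CKB turned to -0.19 with the leukocyte covariate and the CKM brightest probe from -0.0003 to 0.00104 with the brightness covariate and to between -0.00571 and 0.00199 without 1 array, values near 0. Why covariates took calls was not tested. Within Creole the 7 calls became 3 with spike-in scaling, 4 with slide as a block and 0 with either covariate (0 to 14 without 1 array), beside 1.91% of all probes in the main setting and 0.511%, 1.06% and 0% in these. Within Large White the 0 calls became 5 with spike-in scaling, 3 with array weights and 1 with slide as a block (0 to 19 without 1 array), and within F1 they stayed 0. No setting gave an interaction call. For Creole minus Large White the 1 call became 2 with the leukocyte covariate and 0 with TN arrays only (0 to 3 without 1 array, 3 without Large White HS replicate 2). For F1 minus Creole the 0 calls became 1 with normexp, with the filter on all arrays, with array weights and with the brightness covariate, and 2 with the leukocyte covariate (0 to 1 without 1 array). For F1 minus Large White they became 1 with array weights and with the brightness covariate (0 to 1 without 1 array). For F1 minus the midpoint the 1 call became 0 with 75th percentile, median and spike-in scaling, without the filter, with slide as a block and with TN arrays only (0 to 1 without 1 array). The 8 pairs of members called as correlated became 6 with Spearman rho, chosen after seeing the data, 8 with the slide removed and 4 without the 2 farthest arrays, of which 3 were among the 8. GATM spots lie near background and CKM spots near the top of the intensity scale. No paired analysis was possible because replicate numbers follow the order of deposition and pair no animals.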
